A study of Mus musculus with 9 samples.

Results

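Proliferation and DNA replication genes were examined in mouse retinal cells sorted as retinal ganglion cells (RGCs) after optic nerve crush (ONC), with and without the zinc chelator TPEN. The set was defined by name and holds 42 genes, 11 of DNA replication and 31 of mitosis, and 31 of them (10 and 21) were among the 15228 genes of the deposited expression table. The other 11, Rrm2, Ccnb1, Ccnb2, Cdk1, Bub1, Aurkb, Birc5, Cdc20, Ube2c, Cks1b and Cks2, were not analysed here. The cells came from wild-type (WT) retinas without injury (Ctrl) or from WT retinas 3 d after ONC. The injured retinas had an intraocular injection of vehicle, labelled PBS (ONC), or of TPEN at 100 μM (TPEN). Ctrl was labelled normal, with no injection named, so effects of crush and injection cannot be told apart in comparisons with Ctrl. Each group had 3 libraries, and it was not stated whether these came from separate mice, so p-values may measure a spread that is partly technical. C57BL/6J mice were the wild-type strain of the study, and surgery was performed on young adults. TPEN is a membrane-permeable chelator of zinc. Cells positive for CD90.2 (the product of Thy1) and negative for CD48, CD15 and CD57 were collected by flow cytometry, and the mRNA of all collected cells of a sample was sequenced together.

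A cell that enters S phase assembles the MCM2-7 helicase on its origins, and the sliding clamp PCNA holds the DNA polymerases on the strand while ribonucleotide reductase, thymidylate synthase and thymidine kinase supply nucleotides. In G2 and M phase, mitotic kinases, kinesins, centromere proteins and condensins drive the separation of the chromosomes, and Ki-67 and topoisomerase IIα are the standard markers of cycling cells. Adult RGCs and photoreceptors have left the cell cycle, whereas microglia, infiltrating leukocytes, endothelial cells and, after injury, some glia can divide. Many of these transcripts are controlled by E2F and DREAM complexes through E2F sites and CHR elements close to the start of transcription. Many of their promoters also hold CCAAT boxes.

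The libraries held 19946993 to 23109754 reads, and 1 RPKM is 1 read per kilobase of exon per 1000000 reads of the library (without the length, reads per 1000000 are RPM). A count of 0 allows up to 3 reads, a limit of counting error only. The 8 of 11 RGC markers with values summed to 329 to 339 RPKM in Ctrl, 345 to 365 in ONC and 265 to 278 with TPEN. Nefl and Nefm, whose exons overlap, made up most of this sum, at means of 258 and 49.5 RPKM in Ctrl. Nefl, Nefm and Sncg had lower means in TPEN than in ONC. Thy1 went the other way, from a mean of 5.35 RPKM in ONC to 7.12 with TPEN, and Isl1 went from 1.64 to 1.76. Some defining markers were low. Rbpms, a marker of RGCs, was at a mean of 0.605 RPKM in Ctrl, 0.393 in ONC and 0.319 in TPEN. Rod markers stood far above those of RGCs: 7 of them summed to 14286 to 14928 RPKM in Ctrl, 12556 to 12747 in ONC and 13358 to 13459 with TPEN. Markers of Müller glia and astrocytes summed to 504 to 523 RPKM in Ctrl. RNA of rods and glia was thus measured along with that of RGCs, and fewer cells of a type cannot be told apart from less RNA per cell.

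Mcm3 and Mcm5 were called higher in ONC/Ctrl, and Mki67 and Top2a only in a fit without the filter on low genes. Mki67 and Top2a were listed only through the injured groups and had to differ from Ctrl. The promoters below show the stretch from which these 4 genes are read, beside that of Pcna, which was not called in any comparison. Each is the 250 bases before the RefSeq start of the gene (GRCm38.p6), written 5′ to 3′ on the strand of the gene, and capitals mark the CHR element TTTGAA, the CCAAT box CCAAT and the E2F sites TTTCCCGC, TTTCGCGC, TTTGCCGC and TTTGGCGC on either strand. They lie at chr7:135716380-135716629 (minus strand, Mki67), chr11:99024190-99024439 (minus strand, Top2a), chr1:20820313-20820562 (minus strand, Mcm3), chr8:75109259-75109508 (plus strand, Mcm5) and chr2:132253181-132253430 (minus strand, Pcna).
Mki67: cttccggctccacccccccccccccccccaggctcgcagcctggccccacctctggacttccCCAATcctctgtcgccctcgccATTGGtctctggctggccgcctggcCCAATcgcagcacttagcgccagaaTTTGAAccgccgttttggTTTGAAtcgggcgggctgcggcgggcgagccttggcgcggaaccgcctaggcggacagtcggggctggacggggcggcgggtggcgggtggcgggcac
Top2a: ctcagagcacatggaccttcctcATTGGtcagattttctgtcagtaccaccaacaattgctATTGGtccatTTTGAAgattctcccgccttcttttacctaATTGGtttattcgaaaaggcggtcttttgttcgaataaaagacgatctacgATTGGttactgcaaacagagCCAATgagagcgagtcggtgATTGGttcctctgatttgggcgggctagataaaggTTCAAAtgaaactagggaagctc
Mcm3: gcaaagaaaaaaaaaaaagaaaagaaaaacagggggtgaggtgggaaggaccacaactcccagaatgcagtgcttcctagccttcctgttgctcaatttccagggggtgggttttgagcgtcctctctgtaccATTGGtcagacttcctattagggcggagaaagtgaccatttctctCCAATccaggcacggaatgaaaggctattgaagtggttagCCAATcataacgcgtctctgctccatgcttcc
Mcm5: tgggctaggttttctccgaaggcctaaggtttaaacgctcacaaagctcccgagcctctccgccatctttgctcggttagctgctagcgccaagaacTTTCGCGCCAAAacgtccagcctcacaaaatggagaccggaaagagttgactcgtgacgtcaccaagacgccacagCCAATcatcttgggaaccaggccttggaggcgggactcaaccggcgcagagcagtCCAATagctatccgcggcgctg
Pcna: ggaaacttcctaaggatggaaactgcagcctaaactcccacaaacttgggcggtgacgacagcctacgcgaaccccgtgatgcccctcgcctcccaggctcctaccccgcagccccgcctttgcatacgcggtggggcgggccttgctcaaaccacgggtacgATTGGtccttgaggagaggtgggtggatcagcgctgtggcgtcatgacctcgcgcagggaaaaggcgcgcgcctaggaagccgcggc
Mki67 and Top2a each held 2 CHR elements, and Mcm3, Mcm5 and Pcna held none. Top2a held 6 CCAAT boxes, Mki67 and Mcm3 held 3, Mcm5 held 2 and Pcna held 1. Mcm5 alone of these 5 held E2F sites, 2 that overlap each other on opposite strands. Among all 32851 RefSeq promoters of this length, 16.0% held the CHR element, 33.8% a CCAAT box and 1.86% an E2F site of these letters. Promoters were found for 26 of the 31 genes with values, with 2 start sites for Mcm7 and for Prc1. The CHR element was in 1 of 10 replication promoters and 7 of 18 mitotic promoters, the CCAAT box in 8 of 10 and 15 of 18, and an E2F site in 3 of 10 and 1 of 18. A match of letters is a description and does not show that a factor binds there.

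Most of the set was present at low levels, and few of its genes passed the test between the groups. The median of the mean levels was 2.10 RPKM for the replication genes and 0.787 RPKM for the mitotic genes, against 4.10 RPKM for all listed genes. The levels were uneven, with 6 genes above 5 RPKM (Pcna, Mcm7, Rrm1, Smc4, Ccna2 and Bub1b), 9 between 1 and 5 RPKM, 10 between 0.5 and 1 RPKM and 6 below 0.5 RPKM. The 6 lowest, Mki67, Top2a, Cenpf, Kif23, Ncapg and Anln, fell under the filter of a mean of 0.5 RPKM over the 9 libraries. The 25 genes above it, 10 of replication and 15 of mitosis, were tested with limma on log2(RPKM + 0.1) among 13566 genes. A gene was called when its adjusted p was under 0.05 and its fold change at least 1.5.

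**Figure D1:**
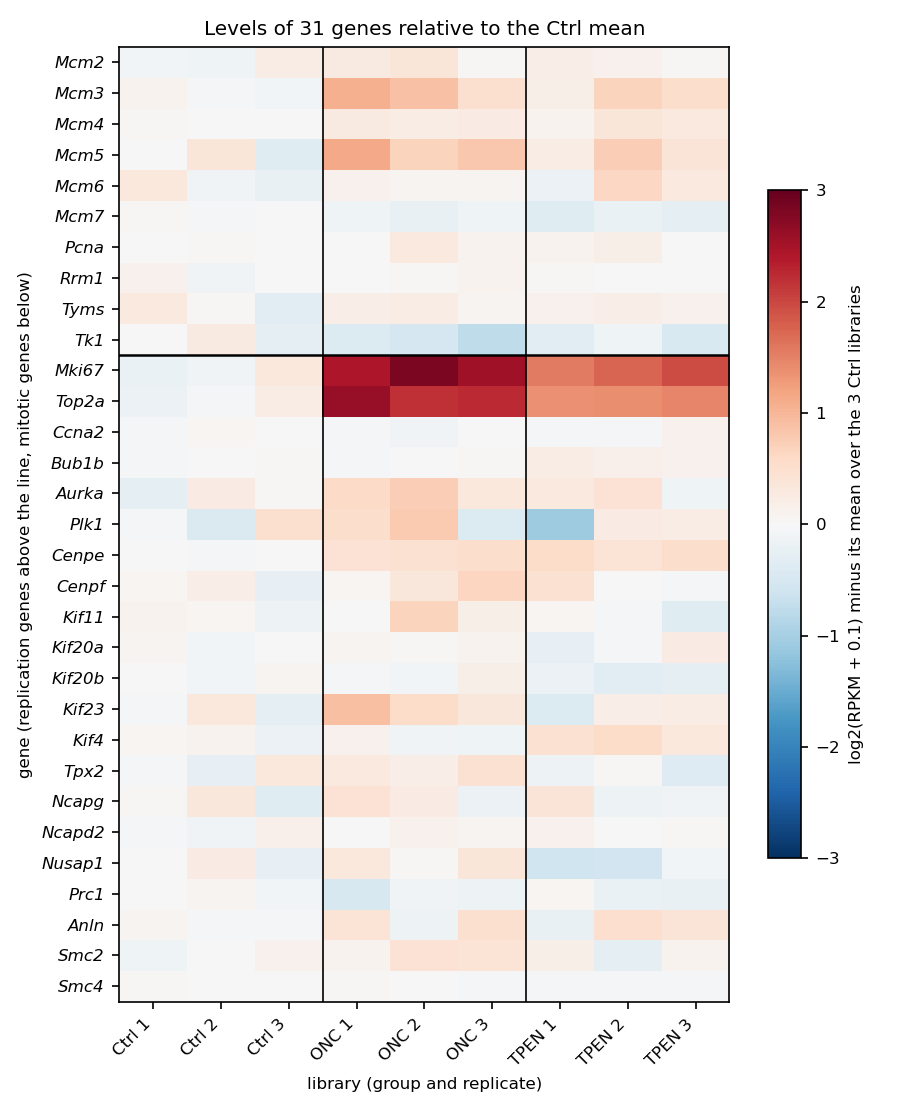
Level of each of the 31 genes (rows) in each of the 9 libraries (columns), as log2(RPKM + 0.1) minus the mean of the 3 Ctrl libraries of that gene; red is higher and blue lower. Mki67 and Top2a are the darkest rows in the ONC libraries and lighter in the TPEN libraries, and most other rows stay pale, with Mcm3 and Mcm5 the reddest of the replication genes in ONC.

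In ONC/Ctrl, 2 of the 10 replication genes rose past both limits and none of the 15 mitotic genes did. Over all genes tested, 4.58% were called higher and 0.752% lower, 622 and 102 genes (525 and 184 after quantile normalization). Of the 25 genes, 20 had a log2 fold change above 0 and 5 below, with a median of 0.13 against 0.02 for all genes tested. Of all 13566 genes tested, 7262 were above 0. After quantile normalization, 15 of the 25 were above 0, and 5781 of the 13566. Without the filter, 2 of 21 mitotic genes were called higher, Mki67 and Top2a, and 6.19% of all 15228 genes were. Both genes were listed only through the injured groups and had to differ from Ctrl.

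The replicative helicase changed unevenly among its 6 subunits. Mcm3 spans chromosome 1 from 20802968 to 20820312 on the minus strand and Mcm5 chromosome 8 from 75109569 to 75128439 on the plus strand (GRCm38), and the deposited length of each equals that of its merged exons. Mcm3 was at 1.40, 1.27 and 1.22 RPKM in the Ctrl libraries, 2.84, 2.48 and 1.86 in ONC and 1.47, 2.11 and 1.92 with TPEN. All 3 ONC libraries lay above the Ctrl libraries, and those of TPEN overlapped ONC. Its log2 fold change in ONC/Ctrl was 0.82 (SE 0.17, limma adjusted p = 0.00872), and its adjusted p stayed between 0.00395 and 0.0362 when any library was left out. Mcm5 was at 0.614, 0.824 and 0.462 RPKM in Ctrl, 1.47, 1.04 and 1.16 in ONC and 0.739, 1.09 and 0.841 with TPEN. The ONC libraries again lay above all Ctrl libraries, while TPEN overlapped both groups. Its log2 fold change in ONC/Ctrl was 0.87 (SE 0.22, limma adjusted p = 0.0203). The limma adjusted p of Mcm5 rose to 0.057 without Ctrl replicate 1, to 0.0624 without Ctrl replicate 3 and to 0.0777 without ONC replicate 1.

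The other 4 subunits of the ring did not pass the test in ONC/Ctrl. Mcm4 went from 2.66 ± 0.0519 RPKM in Ctrl to 3.18 ± 0.0412 RPKM in ONC (SD, n = 3), and its libraries did not overlap, but its limma adjusted p was 0.0692. Mcm2 went from 2.17 ± 0.313 to 2.54 ± 0.284 RPKM and Mcm6 from 0.731 ± 0.172 to 0.777 ± 0.0212 RPKM (SD, n = 3), both with overlapping libraries. Mcm7 was at 5.75 ± 0.151 RPKM in Ctrl, 5.13 ± 0.205 in ONC and 4.75 ± 0.273 with TPEN (SD, n = 3). Both injured groups lay below every Ctrl library, but Mcm7 shares 7.25% of its exon bases with Ap4m1 on the opposite strand, and the use of strand in counting was not stated. The log2 fold change of Mcm7 was -0.16 in ONC/Ctrl (limma adjusted p = 0.115) and -0.27 in TPEN/Ctrl (limma adjusted p = 0.0206), a decrease below 1.5-fold. In TPEN/Ctrl, the limma adjusted p of Mcm7 rose to 0.0725 without Ctrl replicate 1, 0.0699 without TPEN replicate 1 and 0.0571 without TPEN replicate 3.

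Pcna, the sliding clamp, had the highest level of the replication genes and did not pass the test in any comparison. It was at 14.1, 14.6 and 14.3 RPKM in Ctrl, 14.2, 17.7 and 15.4 in ONC and 15.4, 16.3 and 14.5 with TPEN. The groups overlapped, except that ONC replicate 2 was the highest of all 9 libraries. Its log2 fold change in ONC/Ctrl was 0.13 with a 95% interval of -0.04 to 0.30, which leaves out a change of 1.5-fold. In TPEN/ONC the log2 fold change of Pcna was -0.03 (-0.20 to 0.14).

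None of the genes of nucleotide supply passed the test for an increase. Rrm1, the large subunit of ribonucleotide reductase, was at 5.42 ± 0.482 RPKM in Ctrl, 5.61 ± 0.174 in ONC and 5.49 ± 0.0528 with TPEN (SD, n = 3). Tyms, thymidylate synthase, was at 0.700 ± 0.171, 0.784 ± 0.0486 and 0.776 ± 0.0264 RPKM in the same order (SD, n = 3). Tk1, the thymidine kinase of S phase, was lower in every ONC library than in any Ctrl library, at 0.772 ± 0.169 RPKM in Ctrl, 0.488 ± 0.0720 in ONC and 0.607 ± 0.0816 with TPEN (SD, n = 3). Its log2 fold change of -0.56 in ONC/Ctrl (SE 0.19) did not pass the test (limma adjusted p = 0.0663), but it was called lower with voom on the whole reads (limma, log2 fold change -0.66, adjusted p = 0.0236) and after quantile normalization (limma, log2 fold change -0.76, adjusted p = 0.0218).

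**Figure D2:**
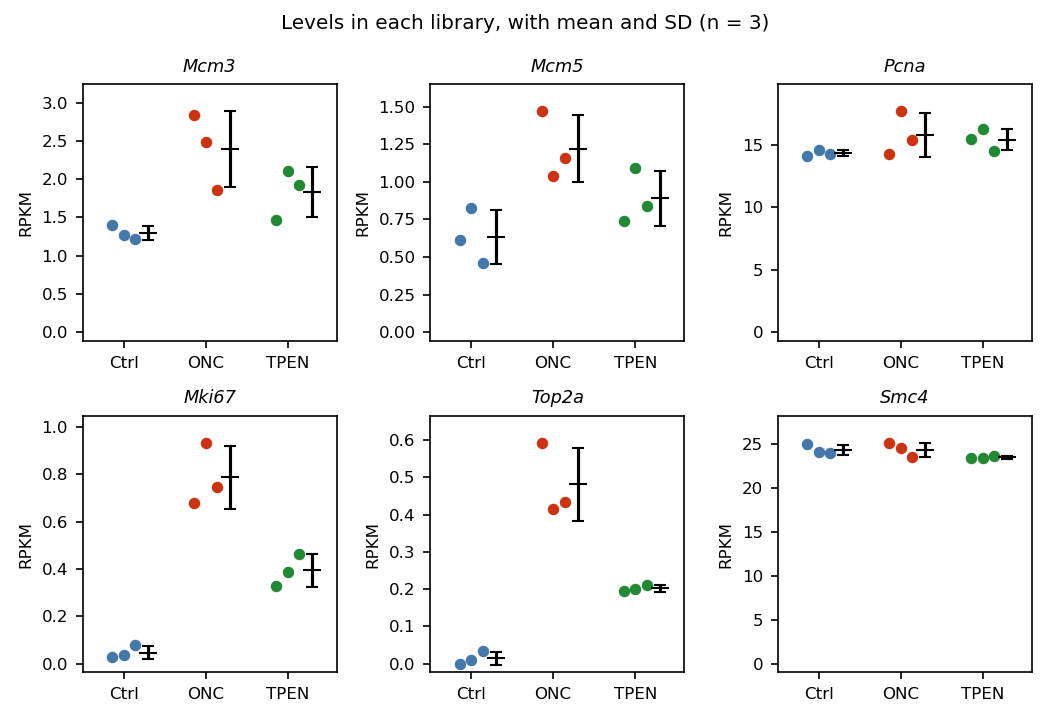
Levels in RPKM (linear axes from 0) of 3 replication genes (top) and 3 mitotic genes (bottom) in each library, with points for the 3 libraries of a group and bars for the mean and SD. Mki67 and Top2a separate the 3 groups, Mcm3 and Mcm5 separate ONC from Ctrl, and Pcna and Smc4, the gene with the highest level of each set, stay near 15 and 24 RPKM.

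Mki67, which encodes the proliferation marker Ki-67, and Top2a, topoisomerase IIα, had the largest log2 fold changes of the set in ONC/Ctrl. On GRCm38, Mki67 spans chromosome 7 from 135689784 to 135716361 and Top2a chromosome 11 from 98992943 to 99024189, both on the minus strand, and Top2a shares 1.35% of its exon bases with a snoRNA gene. Mki67 had 6, 8 and 16 reads in the Ctrl libraries, 157, 216 and 173 in ONC and 66, 87 and 93 in TPEN. In RPKM these were 0.0266, 0.0344 and 0.0792 in Ctrl, 0.679, 0.935 and 0.749 in ONC and 0.328, 0.389 and 0.463 in TPEN. The 3 groups did not overlap, with Ctrl lowest and ONC highest. Top2a had 0, 2 and 6 reads in Ctrl, 123, 86 and 90 in ONC and 35, 40 and 38 in TPEN. These were 0, 0.00960 and 0.0332 RPKM in Ctrl, 0.594, 0.415 and 0.435 in ONC and 0.194, 0.200 and 0.211 with TPEN. The groups of Top2a were ordered in the same way and did not overlap either.

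Relative to Ctrl, the RPM of Mki67 were 17.3-fold higher in ONC (95% interval 12 to 25.9) and those of Top2a 35.6-fold higher (17.8 to 83.2), with intervals that cover counting error only. The ratio of Top2a rests on 8 Ctrl reads, and it was 98.8 (27.1 to 819) without Ctrl replicate 3, which leaves 2 reads, and 23.4 (11.7 to 54.7) without Ctrl replicate 1. In TPEN, the ratio to ONC was 0.5 (0.428 to 0.582) for Mki67 and 0.419 (0.334 to 0.522) for Top2a, and the ratio to Ctrl 8.66 (5.91 to 13.1) and 14.9 (7.31 to 35.4). Without Ctrl replicate 3 or 1, the ratio of Top2a in TPEN to Ctrl was 41.4 (11.2 to 346) or 9.82 (4.81 to 23.3). In the fit without the filter, the log2 fold change of Mki67 was 2.6 in ONC/Ctrl (SE 0.19, limma adjusted p = 1.1e-05), -0.84 in TPEN/ONC (limma adjusted p = 0.0275) and 1.76 in TPEN/Ctrl (limma adjusted p = 2.6e-04). For Top2a it was 2.34 in ONC/Ctrl (SE 0.18, limma adjusted p = 1.2e-05), -0.93 in TPEN/ONC (limma adjusted p = 0.0126) and 1.41 in TPEN/Ctrl (limma adjusted p = 6.2e-04). The pseudocount exceeds the Ctrl levels of both genes, so these fold changes are smaller than the ratios. Two-sided exact permutation tests gave p = 0.1 for both genes and each pair of groups, the smallest that 3 libraries against 3 allow. Because Mki67 and Top2a had to differ from Ctrl to be listed, their p-values against Ctrl are no test of an increase.

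Both genes were at most 0.797 RPM in Ctrl, and every gene of the table had over 1 RPM in at least 2 libraries. Mki67 and Top2a were thus listed only through their levels after injury, as were Kif23 and Anln, whereas a gene as low in all groups would have no entry. The increase of Mki67 and Top2a over Ctrl is therefore a description of genes that had to differ from Ctrl to be listed. The limma adjusted p of Mki67 in TPEN/ONC rose to 0.0521, 0.0997 and 0.0726 without ONC replicate 1, 2 or 3, and to 0.0882 and 0.0744 without TPEN replicate 1 or 2. That of Top2a rose to 0.0501 without ONC replicate 1. Over 16 alternative settings, the limma adjusted p in TPEN/ONC ranged from 2.2e-04 to 1 for Mki67 and from 0.00127 to 1 for Top2a. With a pseudocount of 0.01 RPKM it was 0.123 and 0.171, and both were at 1 in a test against a fold change of 1.5.

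Markers of microglia and macrophages followed the same order of groups. The summed level of the 14 of 19 such markers with values was 5.07 to 5.79 RPKM in Ctrl, 64.6 to 68.6 RPKM in ONC and 28.2 to 28.7 RPKM in TPEN. The mean of this sum in ONC was 12.1-fold that in Ctrl, and with TPEN it was 43.1% of that in ONC. Of the 14 markers, 8 had no Ctrl library over 1 RPM and 10 had fewer than 2, so most could not be listed from Ctrl alone. All 12 tested markers had an adjusted p under 0.05 and higher levels in ONC/Ctrl, against 11.7% of all genes tested. However, 7 of these 12 had no Ctrl library over 1 RPM, so they too were listed only through the injured groups and had to differ from Ctrl. Counting those with 1 such library, 9 of the 12 needed an injured library to be listed. Among the 3 tested markers over 1 RPM in all Ctrl libraries, the log2 fold changes in ONC/Ctrl were 2.52 for Cx3cr1, 2.72 for Csf1r and 3.68 for Itgam. Itgam shares 75.3% of its exon bases with Gm49368 on the same strand, and Csf1r 17.9% with Hmgxb3 on the opposite strand. In TPEN/ONC, 7 of the 12 had an adjusted p under 0.05 and lower levels, against 4.14% of all genes tested. This 4.14% is not an even background, because a marker low in Ctrl and TPEN could be tested only through ONC. Tmem119, among the 7, was at means of 0.0668 RPKM in Ctrl and 0.473 in TPEN, both under the filter of 0.5 RPKM. For Cx3cr1, Csf1r and Itgam, the log2 fold changes in TPEN/ONC were -0.47, -0.83 and -1.32 (limma adjusted p = 0.155, 0.00174 and 5.8e-05). The defining marker Csf1r went from 0.810 ± 0.107 RPKM in Ctrl to 5.85 ± 0.117 in ONC and 3.25 ± 0.320 in TPEN, and Aif1 from 0.274 ± 0.155 to 2.04 ± 0.0598 and 0.828 ± 0.211 RPKM (SD, n = 3). The gate left out cells positive for CD48, a surface protein of leukocytes.

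The markers of other cells that can divide were sparse or had smaller relative changes in their sums from Ctrl to ONC, but some had the same order of groups. The sum of 5 endothelial and pericyte markers was 14.5 to 15.2 RPKM in Ctrl, 16.8 to 17.0 in ONC and 17.6 to 18.5 with TPEN. Kdr made up most of this sum, at means of 10.7, 12.5 and 14.1 RPKM. In TPEN/Ctrl, 2 of these 5 markers had a log2 fold change above 0 and 3 below. The sum of 8 Müller glia and astrocyte markers was 504 to 523 RPKM in Ctrl, 592 to 603 in ONC and 453 to 463 with TPEN. These 8 went both ways in ONC/Ctrl, with an adjusted p under 0.05 for 3 that were higher (Gfap, Vim and Apoe) and 3 that were lower (Glul, Aqp4 and Rlbp1), against 11.7% and 6.97% of all genes tested. Gfap, an intermediate filament gene of reactive glia, went from a mean of 2.79 RPKM in Ctrl to 22.2 in ONC and 14.4 with TPEN, and Glul, glutamine synthetase, from 172.7 to 116.1 and 102.8 RPKM. Vim and Apoe had the same order of groups as Gfap, at means of 19.0, 57.1 and 44.0 RPKM and of 172, 268 and 178 RPKM. The others of the 8 did not have this order. Of 7 neutrophil markers 2 had values, with sums of 0.209 to 0.361 RPKM in Ctrl, 1.27 to 1.61 in ONC and 0.264 to 0.562 with TPEN, and neither had a Ctrl library over 1 RPM. The mean of this sum in ONC was 5.37-fold that in Ctrl, and with TPEN it was 27.6% of that in ONC. The single fibroblast marker with values, Pdgfra, stayed at or below 0.160 RPKM in every library, and none of 8 T cell markers was analysed here. The part of any of these cells in the levels of Mki67 and Top2a was not tested.

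The other 4 mitotic genes under the filter had few reads and no call in any comparison. Kif23, a kinesin of the central spindle, was at 0.0851 ± 0.0381 RPKM in Ctrl, 0.180 ± 0.0564 in ONC and 0.0868 ± 0.0424 with TPEN (SD, n = 3). The log2 fold change of Kif23 was 0.60 in ONC/Ctrl (limma adjusted p = 0.125) and -0.59 in TPEN/ONC (limma adjusted p = 0.187). Cenpf, Ncapg and Anln had log2 fold changes of 0.17 to 0.34 in ONC/Ctrl, with overlapping libraries.

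Among the mitotic genes above the filter, Cenpe, the kinetochore kinesin, rose by less than 1.5-fold after ONC and stayed higher with TPEN. Cenpe was at 2.54 ± 0.0484 RPKM in Ctrl, 3.57 ± 0.136 in ONC and 3.62 ± 0.202 with TPEN (SD, n = 3). Every library of both injured groups was above every Ctrl library. An adjusted p under 0.05 in ONC/Ctrl was reached by 11.7% of all genes tested in the higher direction and 6.97% in the lower. The log2 fold change of Cenpe was 0.48 in ONC/Ctrl (SE 0.07, limma adjusted p = 0.00138) and 0.50 in TPEN/Ctrl (limma adjusted p = 0.00160). In TPEN/ONC the log2 fold change of Cenpe was 0.02 with a 95% interval of -0.14 to 0.18.

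The mitotic kinases did not pass the test in ONC/Ctrl. Aurka, the kinase of spindle poles, was at 1.29 ± 0.259 RPKM in Ctrl, 1.92 ± 0.293 in ONC and 1.50 ± 0.315 with TPEN (SD, n = 3), with every ONC library above every Ctrl library. The log2 fold change of Aurka in ONC/Ctrl was 0.54 (SE 0.19, limma adjusted p = 0.0806). With voom on the whole reads it was 0.575 (limma adjusted p = 0.0363), below 1.5-fold. Plk1, a kinase of mitotic entry, varied widely within groups, from 9 to 32 reads in the TPEN libraries and from 19 to 50 in ONC. Bub1b, a kinase-like protein of the spindle checkpoint, was at 7.83 ± 0.196 RPKM in Ctrl, 7.85 ± 0.206 in ONC and 8.84 ± 0.233 with TPEN (SD, n = 3). Every TPEN library of Bub1b was above all others, with log2 fold changes of 0.17 in both TPEN/ONC and TPEN/Ctrl (limma adjusted p = 0.0668 and 0.0425). Its adjusted p in TPEN/Ctrl rose to between 0.0528 and 0.127 when any of the 9 libraries was left out.

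Among the other spindle proteins, the chromokinesin Kif4 was higher with TPEN, at 1.34 ± 0.150 RPKM in Ctrl, 1.31 ± 0.134 in ONC and 1.86 ± 0.164 with TPEN (SD, n = 3). Its TPEN libraries lay above all others, but Kif4 shares 15.1% of its exon bases with Pdzd11 on the opposite strand. The log2 fold change of Kif4 was 0.47 in TPEN/ONC (SE 0.12, limma adjusted p = 0.0521) and 0.44 in TPEN/Ctrl (limma adjusted p = 0.0454), and the latter adjusted p rose to between 0.0504 and 0.136 when any library was left out. With voom on the whole reads, the limma adjusted p of Kif4 was 0.00857 in TPEN/ONC and 0.0128 in TPEN/Ctrl, with both changes below 1.5-fold. Tpx2, Nusap1 and Kif20b, which act on spindle microtubules, were lower in every TPEN library than in any ONC library. Tpx2 was at 1.03 ± 0.0996 in ONC and 0.711 ± 0.119 RPKM in TPEN, Nusap1 at 0.761 ± 0.103 and 0.454 ± 0.120 RPKM, and Kif20b at 3.59 ± 0.369 and 2.94 ± 0.175 RPKM (SD, n = 3). Their log2 fold changes in TPEN/ONC were -0.48, -0.65 and -0.28 (limma adjusted p = 0.148, 0.0885 and 0.112). Nusap1 was called lower with voom on the whole reads (limma, log2 fold change -0.76, adjusted p = 0.0391). Kif20b had a log2 fold change of -0.29 with voom (limma adjusted p = 0.0446), a decrease below 1.5-fold. Kif11, the kinesin that keeps the spindle bipolar, Kif20a and Prc1 had log2 fold changes of 0.28, 0.07 and -0.25 in ONC/Ctrl, none of which passed the test. Kif20a shares 33.2% and Prc1 11.1% of its exon bases with another gene.

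The condensin genes and the S phase and mitosis cyclin Ccna2 made up most of the RNA of the mitotic set. Smc4, a core subunit of condensin, was at 25.0, 24.0 and 23.9 RPKM in Ctrl, 25.0, 24.5 and 23.4 in ONC and 23.4, 23.3 and 23.6 with TPEN. Its Ctrl and ONC libraries overlapped, and its log2 fold change in ONC/Ctrl was 0.0011 with a 95% interval of -0.08 to 0.08. Its partner Smc2 was at 1.81 ± 0.159, 2.28 ± 0.302 and 1.82 ± 0.302 RPKM in Ctrl, ONC and TPEN, and the condensin subunit Ncapd2 at 3.89 ± 0.397, 4.09 ± 0.198 and 4.05 ± 0.208 RPKM (SD, n = 3). Neither passed the test in any comparison. Ccna2 was at 9.05 ± 0.350, 8.67 ± 0.284 and 9.10 ± 0.740 RPKM (SD, n = 3) and shares 12.5% of its exon bases with Exosc9. In all, 11 of the 31 genes share exon bases with another gene, 7 of them over 5%.

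**Figure D3:**
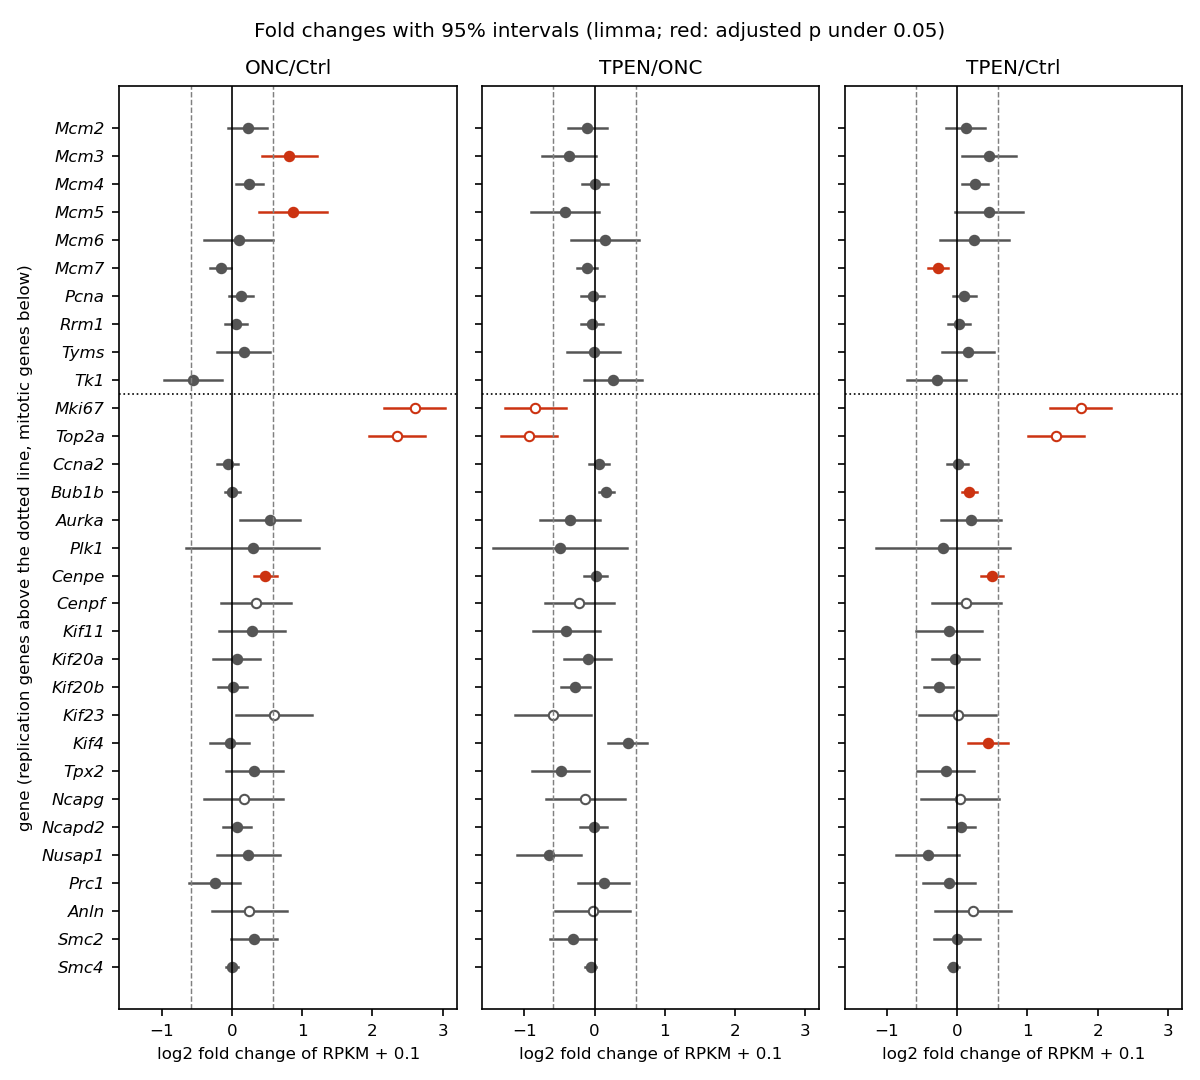
Log2 fold changes on the log2(RPKM + 0.1) scale (x axes) of the 31 genes in the 3 comparisons, with 95% intervals from limma; open points are the 6 genes under the filter, taken from the fit without it, red marks an adjusted p under 0.05 and dashed lines a 1.5-fold change. Mki67 and Top2a, listed only through the injured groups, stand far from the rest in ONC/Ctrl, and in TPEN/ONC no gene other than these 2 is red.

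In TPEN/ONC, none of the 10 replication genes and none of the 15 mitotic genes was called in the limma fit, where 0.818% of all genes tested were called higher and 1.21% lower. At an unadjusted p under 0.05, there were 0 replication and 5 mitotic genes, 20% of the 25 against 22% of all genes tested, and voom called 0 and 1. Without the filter, Mki67 and Top2a were called lower, 2 of 21 mitotic genes, against 1.85% of all genes. The median log2 fold change of the 25 genes was -0.05, against -0.01 for all genes tested. Mcm3 and Mcm5 had log2 fold changes of -0.36 (95% interval -0.75 to 0.03) and -0.42 (-0.90 to 0.07), and both intervals include 0.

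In TPEN/Ctrl, again 0 of 10 and 0 of 15 genes were called, where 3.45% of all genes tested were called higher and 0.457% lower. At an unadjusted p under 0.05, there were 3 and 4 genes, 28% of the 25 against 27.2% of all genes tested, and voom called 0 and 0. With no minimum fold change, 1 replication gene (Mcm7, lower) and 3 mitotic genes (Cenpe, Bub1b and Kif4, higher) had an adjusted p under 0.05, against 8.36% of all genes in the higher and 5.01% in the lower direction. Without the filter, Mki67 and Top2a were called higher, against 4.5% of all genes, but both were listed only through the injured groups and had to differ from Ctrl. The 3 comparisons share libraries, and their values are given side by side for that reason.

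Libraries did not overlap between ONC and Ctrl for 5 of the 25 genes that were higher (Mcm3, Mcm4, Mcm5, Aurka and Cenpe) and 3 that were lower (Mcm7, Tk1 and Prc1). Over all genes tested, 20.7% were higher and 15.8% lower without overlap, so the share of the set was close to that background. In TPEN/ONC, 2 genes were higher and 3 lower without overlap, against 12.5% and 15.6% of all genes, and in TPEN/Ctrl 5 and 3, against 18.1% and 13.3%.

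The summed level of the 10 replication genes was 33.9 to 35.3 RPKM in Ctrl, 36.7 to 39.7 RPKM in ONC and 35.0 to 38.5 RPKM in TPEN, 1.10-fold higher in ONC than in Ctrl by the means. That of the 21 mitotic genes was 59.6 to 60.6, 63.8 to 64.5 and 60.7 to 62.4 RPKM, 1.07-fold higher. The 12 mitotic genes with a mean of 1 RPKM or less, a split chosen after the values were seen, summed to 4.29 to 4.51 RPKM in Ctrl, 6.14 to 6.72 RPKM in ONC and 4.15 to 4.78 RPKM in TPEN. For these low genes the ratio of the means was 1.46 for ONC against Ctrl and 0.709 for TPEN against ONC, and ONC did not overlap Ctrl or TPEN. Among the 12 are Mki67 and Top2a, listed only through the injured groups. Without both, the other 10, which still hold Kif23 and Anln, summed to 4.25 to 4.39 RPKM in Ctrl, 4.95 to 5.37 in ONC and 3.63 to 4.11 with TPEN, with ratios of 1.19 and 0.768.

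**Figure D4:**
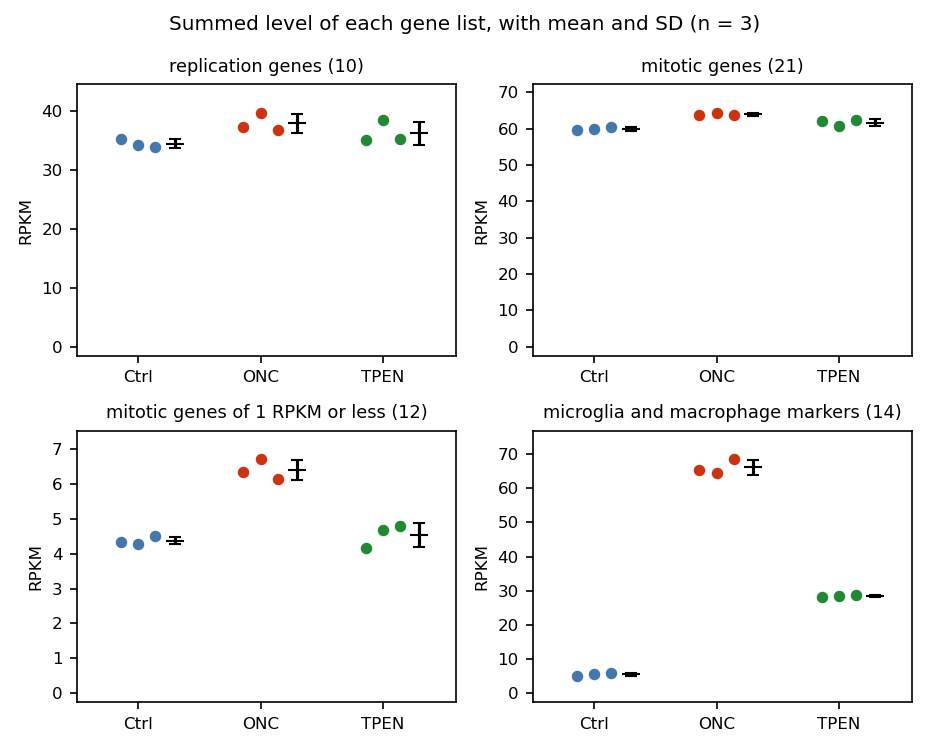
Summed RPKM (linear axes from 0) of 4 gene lists in each library, with points for the 3 libraries of a group and bars for the mean and SD. The sums of the replication and mitotic genes move by about 1.1-fold in ONC, those of the 12 low mitotic genes, Mki67 and Top2a among them, are highest in ONC, and those of the microglia and macrophage markers are highest in ONC and intermediate in TPEN.

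Other genes of the cell cycle were taken from 4 lists that share no gene with the set. Of 33 other replication genes tested, 2 were called higher and 1 lower in ONC/Ctrl, where 4.58% and 0.752% of all genes tested were. Timeless, a protein of the replication fork, was at 0.683 ± 0.0413 RPKM in Ctrl, 1.36 ± 0.230 in ONC and 1.07 ± 0.0785 RPKM in TPEN, and Gins1, a part of the active helicase, at 0.974 ± 0.174, 1.74 ± 0.410 and 1.76 ± 0.377 RPKM (SD, n = 3). Their log2 fold changes in ONC/Ctrl were 0.89 and 0.77 (limma adjusted p = 0.00172 and 0.0295). Gins1 was not called after quantile normalization. The adjusted p of Gins1 in ONC/Ctrl rose to 0.0997, 0.0643, 0.105 and 0.0899 without Ctrl replicate 1, Ctrl replicate 3, ONC replicate 1 and ONC replicate 3. In TPEN/Ctrl, Gins1 was also called (log2 fold change 0.79, limma adjusted p = 0.0343), and this adjusted p was 0.108 without Ctrl replicate 1, 0.0758 without Ctrl replicate 3, 0.0713 without TPEN replicate 1 and 0.111 without TPEN replicate 3. Mcm10, which helps to fire origins, fell from 3.06 ± 0.283 RPKM in Ctrl to 1.95 ± 0.0512 RPKM in ONC and was at 1.88 ± 0.0734 with TPEN (SD, n = 3), with log2 fold changes of -0.62 and -0.67 against Ctrl (limma adjusted p = 0.00107 and 0.00104).

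Of 17 other mitosis genes tested, none was called higher and Spc25 was called lower in ONC/Ctrl, against the same 4.58% and 0.752%. Spc25, a subunit of the NDC80 complex of kinetochores, was at 156, 156 and 145 RPKM in the Ctrl libraries, 95.9, 97.5 and 94.0 in ONC and 102, 99.96 and 103 with TPEN. Its Ctrl libraries lay above all others, and its log2 fold change was -0.67 in ONC/Ctrl (SE 0.03, limma adjusted p = 9.2e-07) and -0.58 in TPEN/Ctrl, just under 1.5-fold. The level of Spc25 was above that of every gene of the set, and its partner Spc24 was at 0.169 ± 0.0658, 0.541 ± 0.0876 and 0.362 ± 0.0874 RPKM in Ctrl, ONC and TPEN (SD, n = 3). Spc24 and the genes Clspn, Cdt1, Ckap2l, Wee1 and Cdkn1a, named after their values were seen, were under the filter and called higher in ONC/Ctrl in the fit without it, with log2 fold changes of 0.59 to 2.21. That fit called 4 of 40 other replication genes, 2 of 27 other mitosis genes, 3 of 25 G1/S regulators and 1 of 5 CDK inhibitors higher, against 6.19% of all genes. Spc24, Ckap2l and Cdkn1a had no Ctrl library over 1 RPM and were listed only through the injured groups. Cdkn1a, which encodes the CDK inhibitor p21, was at 0.0507 ± 0.0568, 0.613 ± 0.305 and 0.515 ± 0.0425 RPKM in Ctrl, ONC and TPEN (SD, n = 3). Of the 6 genes, Wee1, a kinase that holds back mitotic entry, was also called lower in TPEN/ONC (-1.05, limma adjusted p = 0.0142).

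Of 20 regulators of the G1/S transition and of E2F and DREAM complexes, 2 were called higher in ONC/Ctrl and none lower, again against 4.58% and 0.752% of all genes. Ccnd1, cyclin D1, was at 1.93, 1.87 and 1.67 RPKM in Ctrl, 3.48, 3.31 and 3.08 in ONC and 2.58, 2.27 and 1.98 with TPEN, without overlap of the groups. Its log2 fold change was 0.82 in ONC/Ctrl (SE 0.11, limma adjusted p = 6.9e-04) and -0.52 in TPEN/ONC (limma adjusted p = 0.0218), the latter under 1.5-fold. In TPEN/ONC, the adjusted p of Ccnd1 was 0.0831 without ONC replicate 1, 0.0733 without ONC replicate 2, 0.0601 without TPEN replicate 2 and 0.0706 without TPEN replicate 3, and Ccnd1 shares 23.4% of its exon bases with LTO1. E2f6, a repressor of the E2F family, was at 5.22 ± 0.452 RPKM in Ctrl, 10.5 ± 0.217 in ONC and 10.3 ± 0.904 with TPEN (SD, n = 3), with log2 fold changes of 0.99 and 0.96 against Ctrl (limma adjusted p = 2.1e-05 and 4.7e-05). In TPEN/ONC, its log2 fold change was -0.03 with a 95% interval of -0.21 to 0.15. None of the 4 CDK inhibitors tested was called in any of the 3 comparisons, at an unadjusted p under 0.05 there was 1 (ONC/Ctrl), 0 (TPEN/ONC) and 1 (TPEN/Ctrl), and voom called 0. In TPEN/ONC, none of the 33, 17, 20 and 4 genes of these lists was called by limma, 3, 4, 3 and 0 had an unadjusted p under 0.05 (22% of all genes tested did), and voom called 0, 1, 0 and 0.

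**Figure D5:**
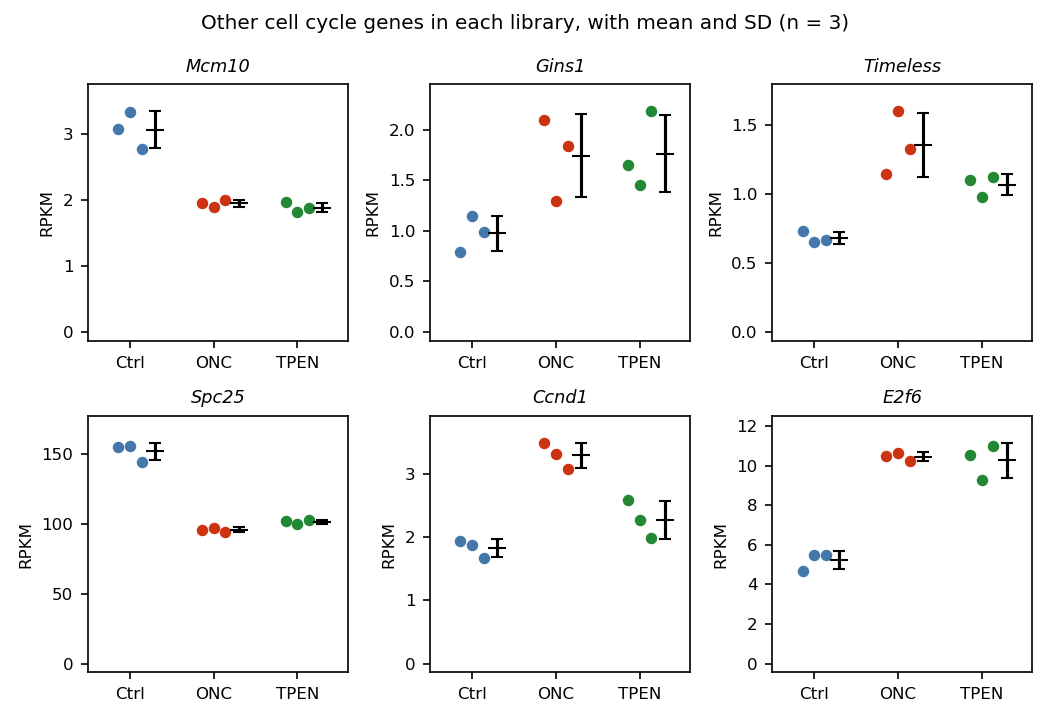
Levels in RPKM (linear axes from 0) of the 6 genes called in the other cell cycle lists, with points for the 3 libraries of a group and bars for the mean and SD. Mcm10 and Spc25 are lower in both injured groups than in Ctrl, E2f6 and Gins1 are higher in both, and Ccnd1 lies between Ctrl and ONC in the TPEN libraries.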

How the data were processed

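Cells sorted as RGCs from 3 Ctrl, 3 ONC and 3 TPEN samples were sequenced from stranded mRNA libraries with unique molecular identifiers. The authors trimmed reads with Trimmomatic 0.36 (submitters' notes), mapped them to GRCm38 with STAR and deposited 1 table of RPKM values, scaled to exon length and to the reads of each library. The counting program, its annotation, its use of strand and whether reads of 1 identifier were collapsed are not given in the sources used here. The table also holds the authors' own edgeR comparisons, deposited as p-value, FDR and log2 fold change columns, which were not used. RPKM times exon length gave whole reads for 100% of values (within 0.01 of a whole number), so depth was recovered. Every listed gene had over 1 RPM (reads per 1000000) in at least 2 of the 9 libraries.

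RPKM values were transformed to log2(RPKM + 0.1), and genes whose mean reached 0.5 RPKM were fitted together for the 3 groups with limma 3.58.1 in R 4.3.3, with a mean trend and the Benjamini-Hochberg method across them all. Exact permutation tests were two-sided. Intervals of read ratios are exact. Alternatives covered the pseudocount, the filter, the scaling, voom on whole reads, a test against a fold change, a replicate block and each library left out, and combinations without the filter, sums without Mki67 and Top2a and read ratios without each library were chosen after seeing the data. Scripts were tested on simulated data. Overlaps came from GENCODE M21 and promoters from RefSeq (36 of 42 genes matched). Python 3.11.15 was used with pandas 2.3.3, numpy 2.4.6, matplotlib 3.10.9 and scipy 1.17.1.

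The 42 genes and the other lists were chosen with earlier results of these data known. Values per library are given in the text or plotted for genes called in any comparison, the gene with the highest level of each set, Mki67 and Top2a, and of the other lists for genes called at a mean of at least 1 RPKM. Other genes of those lists were named after their values were seen. The labels number the libraries 1 to 3 in each group. Deviations of libraries with the same number correlated at -0.062 to 0.027 over 9 pairs, and those with different numbers at -0.037 to 0.051 over 18. No pairing by number was seen, but with 3 libraries in each group a weak pairing could go unseen.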

Additional observations from a re-analysis of the deposited data

How the results depend on the processing

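The 2 replication genes called in ONC/Ctrl were 1 with a filter at 1 RPKM, 0 with a pseudocount of 1 RPKM, 0 in a test against a fold change of 1.5 and 1 to 2 with any library left out. For mitotic genes the count of 0 became 2 without the filter in each of the 3 comparisons, 1 with voom in TPEN/ONC, and with no minimum fold change 1 in ONC/Ctrl and 3 in TPEN/Ctrl, where 1 replication gene was then also counted. Of the tests of the genes above the filter, 7 had an adjusted p under 0.05 by limma, against 11 with voom, 0 in the test against 1.5-fold and 3 to 6 with any library left out. Log2 fold changes near 0 changed sign: with quantile normalization in ONC/Ctrl, that of Bub1b was -0.037 and that of Smc4 -0.044. With any library left out, they ranged from -0.10 to 0.057 for Pcna, -0.0088 to 0.064 for Cenpe, -0.17 to 0.16 for Gins1 and -0.080 to 0.043 for E2f6 in TPEN/ONC, and from -0.017 to 0.022 for Bub1b, -0.12 to 0.027 for Kif4 and -0.020 to 0.027 for Smc4 in ONC/Ctrl. With the replicate number as a block, 2 replication genes and 0 mitotic genes were called in ONC/Ctrl. In the other comparisons, 0 genes of either set were called. Over the 3 comparisons, 6 tests of the genes above the filter had an adjusted p under 0.05. In TPEN/Ctrl, Bub1b (0.09), Mcm7 and Gins1 (0.055 each) and Timeless (0.0582) passed 0.05 by limma adjusted p only without the block. The cause of these changes was not tested. Levels of a few reads, as for Top2a in Ctrl, limit fold changes to wide intervals.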
